A study of Mus musculus with 6 samples.

Results

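The globin switching regulators are 10 genes whose products set which globin genes a red cell precursor transcribes: Bcl11a, Zbtb7a, Sox6, Ikzf1, Nfia, Nfix, Hic2, Lin28b, Chd4 and Kdm1a. They were taken by name, as regulators known from the fetal to adult globin switch. All 10 had at least 1 RefSeq transcript among the 23896 genes with a symbol, and 9 of them were among the 12381 genes tested. Each gene is represented by its most counted transcript, by the mean over the 6 libraries. The measurements come from MEL cells, a mouse erythroleukemia line held at the proerythroblast stage, which were grown in 2% DMSO to start terminal differentiation. Cells were taken at 0, 2 and 4 days, with 2 biological replicates per day and 6 poly(A)-selected, strand-specific mRNA-seq libraries in all. The labels give no genotype, strain or clone for the line. The days are therefore the only contrast, and time in culture and exposure to DMSO cannot be told apart.

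Globin switching is the change in red cell precursors from embryonic (and, in humans, fetal) globins to adult globins. BCL11A and ZBTB7A (also called LRF) bind the promoters of the fetal beta-like globin genes and keep them silent in adult cells, and they recruit the NuRD complex, whose motor subunit is CHD4. SOX6 and IKZF1 (Ikaros) assist this silencing, the nuclear factor I proteins NFIA and NFIX favour it, and KDM1A (LSD1) removes histone methyl groups within the CoREST complex. HIC2 represses the Bcl11a gene, and LIN28B, an RNA-binding protein of fetal blood cells, blocks let-7 microRNAs and the translation of Bcl11a mRNA. The mouse has no fetal beta-like globin of the human kind, so its embryonic genes Hba-x, Hbb-y and Hbb-bh1 serve as the silenced counterpart of the adult genes.

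Promoter sequence from RefSeq (GRCm38.p6) is shown for 3 globin genes and for Chd4, whose promoter carries a rare motif. The letters TGACCA are those that BCL11A recognises, and they occurred on either strand in 11.4% of 32851 mouse promoter windows of 250 bases before a start site. They were found in the windows of the embryonic genes Hbb-y and Hba-x, 86 and 40 bases before the start site. The window of the embryonic gene Hbb-bh2 did not hold them, and Hbb-bh1 had no window to search. None of the windows of the adult genes Hba-a1, Hba-a2, Hbb-bs and Hbb-bt held them. The adult gene Hbb-bs held the letters CCACACCC, the box that the erythroid activator KLF1 binds, 93 bases before its start site, and no window of Hba-a1, Hba-a2 or Hbb-bt held them. These occurred in 3.2% of all windows. In the 3 globin sequences the capitals mark TGACCA in Hbb-y (chr7:103853208-103853357, minus strand) and in Hba-x (chr11:32276450-32276599, plus strand), and CCACACCC in Hbb-bs (chr7:103827929-103828078, minus strand). In Chd4 (chr6:125095731-125095980, plus strand) they mark CATCCCATA, read here on the opposite strand, which is the core bound by ZNF410 (Zfp410 in the mouse), an activator of Chd4.
Hbb-y: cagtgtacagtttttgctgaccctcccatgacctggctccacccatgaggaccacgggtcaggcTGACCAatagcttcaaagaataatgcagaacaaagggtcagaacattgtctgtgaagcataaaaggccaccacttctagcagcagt
Hba-x: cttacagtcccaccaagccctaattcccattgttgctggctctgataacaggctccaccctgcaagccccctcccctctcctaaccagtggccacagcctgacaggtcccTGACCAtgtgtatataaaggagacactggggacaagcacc
Hbb-bs: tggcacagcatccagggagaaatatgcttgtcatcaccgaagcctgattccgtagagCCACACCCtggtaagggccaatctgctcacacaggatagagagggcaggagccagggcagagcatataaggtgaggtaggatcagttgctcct
Chd4: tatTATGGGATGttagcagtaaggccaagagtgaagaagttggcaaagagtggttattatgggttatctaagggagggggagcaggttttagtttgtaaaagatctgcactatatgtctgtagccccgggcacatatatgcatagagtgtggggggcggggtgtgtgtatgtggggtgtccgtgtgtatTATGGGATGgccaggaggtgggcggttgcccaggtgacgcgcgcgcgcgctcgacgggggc
The ZNF410 core stood 247 and 61 bases before the Chd4 start site. It occurred in 0.122% of all windows, and only 2 of the 32851 windows held it at least 2 times. The second Chd4 window of the table overlaps the one shown and holds the nearer copy again. All 10 regulators had at least 1 window, and no letters of the 6 motifs searched were found in those of Bcl11a, Ikzf1, Hic2, Nfia, Nfix and Kdm1a. The only Bcl11a window (chr11:24080445-24080744) lies at the first exon of NM_001159290. First exons of the other Bcl11a transcripts, among them the reported NM_001242934, start upstream at 24078056 to 24078173. The sequence before those was not searched. The other motifs were AGATAA for GATA factors (9.99% of windows), AACAAT for SOX proteins (9.42%) and TTGGCA for nuclear factor I (12.3%). Zbtb7a held AGATAA 39 and 116 bases before its start site, the farther copy on the opposite strand. A match is a string of letters and was not tested for binding.

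Each library held between 35294930 and 53899476 counts on transcripts, and levels are given as library-scaled counts (CPM), for which library sizes were multiplied by edgeR's TMM factors (0.921 to 1.07). Reads on no feature made up 50.5% to 58.4% of a library. The summed level of 7 erythroid markers was 915 to 1001 CPM at day 0, 1216 to 1314 CPM at day 2 and 2890 to 3238 CPM at day 4. Of 7 lymphoid markers 6 were at or below 3 counts in every library, and the summed lymphoid level was at most 0.172 CPM. The 7 myeloid markers summed to 10.7 to 12.2 CPM at day 0 and 1.61 to 2.58 CPM at day 4, with Elane, Itgam and S100a8 at or below 3 counts. The 4 mast cell markers fell from a sum of 3.92 to 4.27 CPM at day 0 to 0.0221 to 0.0277 CPM at day 4. The 4 megakaryocytic markers summed to 268 to 271 CPM at day 0 and 543 to 617 CPM at day 4. The part of these in the changes of the regulators was not tested.

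The regulators did not move as a block. Across the course of DMSO treatment Bcl11a and Ikzf1 fell, and Nfix, Zbtb7a and Hic2 rose. Sox6 was called higher at the first step, close to the threshold and not with DESeq2. Changes of Nfia, Chd4 and Kdm1a did not pass the test in any comparison of the fit of all 6 libraries with TMM scaling, and Lin28b was at 0 throughout. Scaling by total counts alone called Zbtb7a, Hic2, Nfia and Kdm1a higher at day 2 than at day 0 (log2 change 0.38, 0.33, 0.41 and 0.34, edgeR adjusted p = 0.0101, 0.0494, 0.0345 and 0.0294). At day 4 it called Kdm1a and Sox6 higher than at day 0 (0.38 and 0.45, edgeR adjusted p = 0.0167 and 0.0222). The same scaling lost the first step of Bcl11a (-0.25, edgeR adjusted p = 0.188). Per gene, the whole course, day 4 against day 0, gave 3 higher and 2 lower calls among the 9 tested regulators (edgeR, Benjamini-Hochberg adjusted p below 0.05 over all tested transcripts), where 35.5% of all tested genes rose and 36.4% fell. For day 2 against day 0 there were 2 higher and 2 lower calls, beside 31% and 31.5% of all genes. For day 4 against day 2 there were 2 and 2 again, beside 14% and 16.2%. The 5 of 9 regulators called over the whole course are no larger a share than that of all genes. The median log2 change of the 9 regulators was 0.15, 0.12 and 0.26 for the first step, the later step and the whole course, against 0.01, -0.00 and -0.02 over all tested genes. Any pair of these comparisons shares the libraries of 1 day, so they are not independent of each other. In bulk RNA, a change in the RNA per cell and a change in the share of cells that carry it cannot be told apart.

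**Figure D1:**
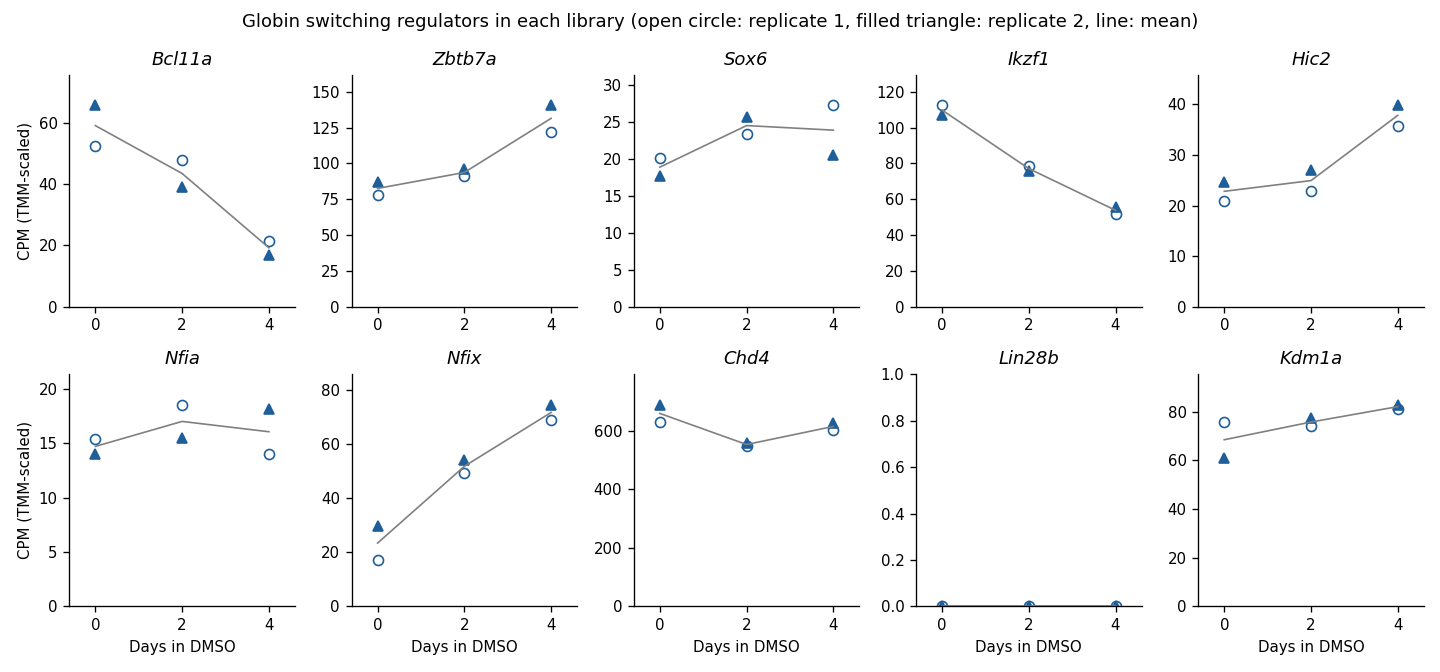
TMM-scaled CPM (y axis, from 0, one scale per gene) of the 10 regulators at days 0, 2 and 4 in DMSO (x axis), with a point per library and a line through the means of 2 replicates. Bcl11a and Ikzf1 go down at both steps, Nfix goes up, and Lin28b lies at 0 in all 6 libraries.

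Bcl11a (NM_001242934, chromosome 11 from 24076564 to 24173558 of GRCm38) encodes the zinc finger repressor at the centre of the switch. It had 52.5 and 66.0 CPM in replicates 1 and 2 of day 0, 47.9 and 39.2 CPM at day 2, and 21.6 and 17.0 CPM at day 4. Every library lay below every library of the earlier day. The fall was small at first, with a log2 change of -0.44 for day 2 against day 0 (standard error, SE, 0.16, on the log2 scale of a fold change, edgeR adjusted p = 0.0279), and larger afterwards, with -1.18 for day 4 against day 2 (SE 0.16, edgeR adjusted p = 0.000627). Whether the steps differ from each other was not tested. Over the whole course the log2 change was -1.62 (SE 0.16, edgeR adjusted p = 4.95e-06), which left 0.324 of the day 0 level. The first step was lost without replicate 2 of day 0 (-0.28, edgeR adjusted p = 0.101), without replicate 2 of day 2 (-0.30, edgeR adjusted p = 0.243) and with scaling by total counts alone (-0.25, edgeR adjusted p = 0.188), whereas the later step and the whole course were called in each of 14 alternatives.

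Among the regulators with several tested transcripts, those of Ikzf1, Nfia, Nfix and Sox6 had nearly equal log2 changes, whereas those of Bcl11a ran from -1.62 to -0.93 for day 4 against day 0. NM_001242934 (835 codons, 4 exons) ends in a long exon from 24163146 to 24168429. NM_016707 (773 codons) keeps the first 1743 bases of it. NM_001159289 (243 codons) and NM_001159290 (191 codons) keep only its first 143 bases and splice to an exon that starts at 24172699, so they lack most of the zinc fingers. Counts on NM_001242934 were 2142 and 3274 at day 0, 2000 and 1928 at day 2, and 778 and 767 at day 4. Counts on NM_001159289 were 1095 and 1235, then 1217 and 1192, then 526 and 574. The transcripts share their middle exons, so the same reads can be in both. The long transcript thus fell from day 0 to day 2, while for the short one the log2 change was 0.05 (SE 0.13, edgeR adjusted p = 0.778, 95% interval -0.25 to 0.34). By day 4 both were lower than at day 0, the short one by a log2 change of -0.93 (edgeR adjusted p = 9.88e-05). NM_016707 went with the long transcript (-0.39, -1.03 and -1.42 in log2 change for day 2 against day 0, day 4 against day 2 and day 4 against day 0) and NM_001159290 with the short one (0.03, -0.97 and -0.94). The ratio of counts on NM_001242934 to counts on NM_001159289 was 1.96 and 2.65 at day 0, 1.64 and 1.62 at day 2, and 1.48 and 1.34 at day 4. The ranges of the 3 days did not overlap. The difference between transcripts was not tested, since shared reads make their counts dependent. In GENCODE, 316 of the 13175 exon bases of Bcl11a (2.4%) lie in exons of 4930538E20Rik on the opposite strand, and whether the counting used strand is not given in the sources used here.

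**Figure D2:**
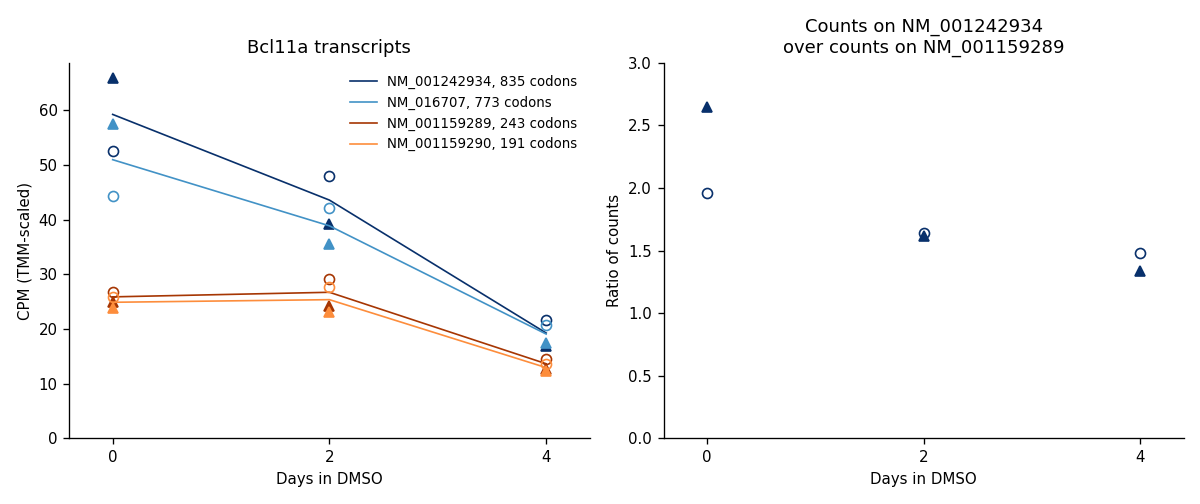
Left, TMM-scaled CPM of the 4 RefSeq transcripts of Bcl11a by day in DMSO (open circles replicate 1, filled triangles replicate 2, lines through the means of 2 replicates). Right, the ratio of counts on NM_001242934 to counts on NM_001159289 in each library, which goes from 1.96 and 2.65 at day 0 to 1.48 and 1.34 at day 4.

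Zbtb7a (NM_010731, chromosome 10 from 81135225 to 81152222), the other DNA-binding repressor with a direct site in fetal globin promoters, moved the opposite way. It had 78.1 and 86.8 CPM at day 0, 91.2 and 96.1 CPM at day 2, and 122 and 141 CPM at day 4. The libraries of the 3 days did not overlap. The log2 change was 0.18 for day 2 against day 0 (edgeR adjusted p = 0.176), 0.49 for day 4 against day 2 (SE 0.11, edgeR adjusted p = 0.00825) and, from day 0 to day 4, 0.67 (SE 0.11, edgeR adjusted p = 0.000251). Without replicate 1 of day 2, replicate 2 of day 2 or replicate 2 of day 4, the change after day 2 was not called (log2 change 0.45, 0.52 and 0.38, edgeR adjusted p = 0.117, 0.0621 and 0.109).

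Ikzf1 (NM_001025597, chromosome 11 from 11684962 to 11772930) encodes Ikaros, a zinc finger protein that is best known from lymphocytes. It had 113 and 107 CPM at day 0, 78.6 and 75.6 CPM at day 2, and 51.8 and 55.8 CPM at day 4. It fell by like amounts at both steps, with log2 changes of -0.51 (SE 0.10, edgeR adjusted p = 0.00109) and -0.52 (SE 0.10, edgeR adjusted p = 0.00368). The whole course gave -1.03 (SE 0.10, edgeR adjusted p = 4.47e-06), or 0.49 of the day 0 level. The later step was not called without replicate 1 of day 2 (-0.49, edgeR adjusted p = 0.0657). The lymphoid markers were at or near 0 on every day, as given above.

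Sox6 (NM_001277326, chromosome 7 from 115470872 to 116040776) encodes an HMG-box protein that represses the embryonic gene Hbb-y in the mouse. It had 20.1 and 17.7 CPM at day 0, 23.4 and 25.6 CPM at day 2, and 27.3 and 20.5 CPM at day 4. The day 2 libraries lay above those of day 0, while the day 4 libraries enclosed those of day 2. The log2 change was 0.38 for day 2 against day 0 (SE 0.15, edgeR adjusted p = 0.0469), close to the threshold. It was not called with DESeq2 (0.35, adjusted p = 0.0684), with relative log expression factors (0.35, edgeR adjusted p = 0.0629) or without replicate 2 of day 0, replicate 1 of day 2 or replicate 2 of day 2 (edgeR adjusted p = 0.133, 0.0965 and 0.23). The log2 change from day 0 to day 4 was 0.34 (edgeR adjusted p = 0.0641, 95% interval 0.00 to 0.67), and it was called without replicate 1 of day 0 (0.42) or replicate 2 of day 4 (0.53), with total counts (0.45) and with no filter on low counts. The 6 Sox6 transcripts had nearly the same counts in every library.

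Nfix (NM_001081981, chromosome 8 from 84704712 to 84801238) had the highest log2 change of the 9 tested regulators. It had 17.3 and 29.6 CPM at day 0, 49.4 and 54.3 CPM at day 2, and 69.0 and 74.7 CPM at day 4. The day 0 replicates lay far apart, but both were below every later library. The log2 change was 1.14 for day 2 against day 0 (SE 0.20, edgeR adjusted p = 0.000471) and, from day 0 to day 4, 1.61 (SE 0.20, edgeR adjusted p = 2.51e-05), a 3.06-fold level. Leaving out the lower or the higher day 0 library moved the first of these to 0.81 and 1.58, both called. The later step, 0.47, missed the threshold (SE 0.19, edgeR adjusted p = 0.0875), and it passed without replicate 1 of day 0 (edgeR adjusted p = 0.000686), without replicate 2 of day 0 (edgeR adjusted p = 0.000666), in a fit of days 2 and 4 alone (edgeR adjusted p = 0.000747) and with no filter (edgeR adjusted p = 0.00191). Nfia (NM_010905, chromosome 4 from 97578066 to 98118876), its family member, had 15.4 and 14.0 CPM at day 0, 18.6 and 15.5 CPM at day 2, and 14.0 and 18.1 CPM at day 4. Its day 4 libraries spanned nearly the range of all the others. No change was called with TMM scaling, and the log2 change for day 4 against day 0 was 0.13 (edgeR adjusted p = 0.468, 95% interval -0.21 to 0.47).

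Hic2 and Lin28b act on Bcl11a rather than on the globin genes. Hic2 (NM_178922, chromosome 16 from 17233587 to 17263430) had 21.0 and 24.6 CPM at day 0, 22.9 and 27.0 CPM at day 2, and 35.8 and 39.9 CPM at day 4. The libraries of days 0 and 2 overlapped, and those of day 4 lay above all of them. The log2 change was 0.13 for day 2 against day 0 (edgeR adjusted p = 0.428), 0.60 for day 4 against day 2 (SE 0.13, edgeR adjusted p = 0.00716) and, from day 0 to day 4, 0.73 (SE 0.13, edgeR adjusted p = 0.000509). The change after day 2 was not called without replicate 1 of day 2 (0.49, edgeR adjusted p = 0.121) or replicate 2 of day 4 (0.52, edgeR adjusted p = 0.0751). Hic2 thus rose over the step at which Bcl11a had its larger fall, though with 3 days no relation between these genes can be tested. In GENCODE, 48.6% of the exon bases of Hic2 also lie in exons of the noncoding gene Gm26635 on the opposite strand, so its level is uncertain if the counting did not use strand. Lin28b (NM_001031772, chromosome 10 from 45376617 to 45486314) had 0 counts in all 6 libraries, which allows a level of up to 0.0604 to 0.0831 CPM per library (3 counts, counting error only). Its paralog Lin28a had 1 count in all.

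Chd4 and Kdm1a are the chromatin enzymes of the list, and no change of either passed the edgeR test in the fit of all 6 libraries with TMM scaling. Chd4 (NM_145979, chromosome 6 from 125095980 to 125130591) had 629 and 689 CPM at day 0, 549 and 557 CPM at day 2, and 603 and 627 CPM at day 4. The days did not overlap, with day 2 the lowest, but the differences were small. Its log2 change was -0.25 for day 2 against day 0 (edgeR adjusted p = 0.0797), 0.15 for day 4 against day 2 (edgeR adjusted p = 0.347) and, from day 0 to day 4, -0.10 (edgeR adjusted p = 0.455, 95% interval -0.36 to 0.16). DESeq2 called the first (-0.28, adjusted p = 0.0196), as did edgeR without replicate 1 of day 0 (-0.32, edgeR adjusted p = 0.0168). Zfp410, the activator whose motif the Chd4 promoter holds 2 times, had 43.3 ± 0.20 CPM at day 0 and 44.9 ± 0.90 CPM at day 4 (SD, n = 2), with a log2 change of 0.05 (edgeR adjusted p = 0.677). Kdm1a (NM_133872, chromosome 4 from 136550533 to 136602787) had 75.9 and 61.0 CPM at day 0, 73.9 and 77.5 CPM at day 2, and 81.3 and 82.8 CPM at day 4. The day 4 libraries were the highest, and the day 0 replicates were apart. Its log2 change for day 4 against day 0 was 0.26 (SE 0.12, edgeR adjusted p = 0.0657, 95% interval 0.00 to 0.52), 0.42 without replicate 1 of day 0 (edgeR adjusted p = 0.00177) and 0.10 without replicate 2 of day 0 (edgeR adjusted p = 0.383).

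**Figure D3:**
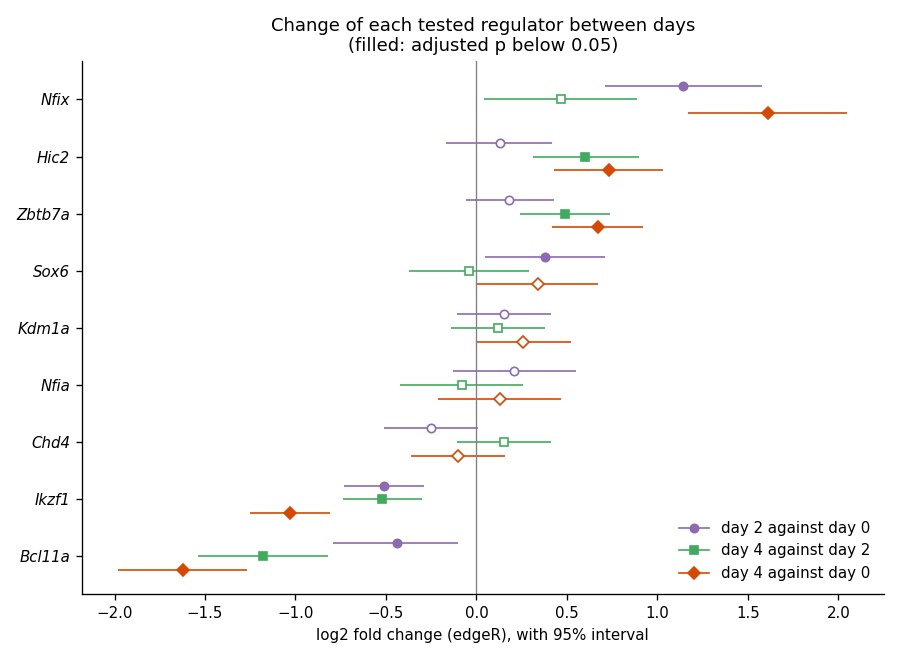
Log2 change (x axis) of the 9 tested regulators (y axis, ordered by day 4 against day 0) for each pair of days, with 95% intervals from the edgeR fit of 6 libraries. Filled symbols passed an adjusted p below 0.05, and for day 4 against day 0 these are Nfix, Hic2 and Zbtb7a above 0 and Ikzf1 and Bcl11a below it.

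The changes reordered the regulators by level. Levels between genes are compared as CPM per kilobase, over the longest GENCODE length among the RefSeq transcripts of each gene. A RefSeq transcript with several GENCODE lengths took the shortest of them. The order can depend on this choice, since transcripts with nearly equal counts differed in length. Those of Nfix had 5476, 1728 and 1403 bases. The Sox6 levels used 8227 bases, though the reported Sox6 transcript has 2825. At day 0 Chd4 was highest with 98.4 ± 6.3 CPM per kilobase (SD, n = 2), followed by Kdm1a (22.8 ± 3.5), Ikzf1 (21.3 ± 0.79), Zbtb7a (13.9 ± 1.0), Bcl11a (9.89 ± 1.6), Nfix (4.28 ± 1.6), Hic2 (3.59 ± 0.41), Sox6 (2.30 ± 0.21) and Nfia (1.55 ± 0.11). The replicate ranges of Kdm1a and Ikzf1 overlapped, as did those of Nfix and Hic2. At day 4 Chd4 (91.8 ± 2.5) and Kdm1a (27.3 ± 0.37) still led, and Zbtb7a (22.1 ± 2.2), Nfix (13.1 ± 0.74), Ikzf1 (10.4 ± 0.54) and Hic2 (5.96 ± 0.45) were now all above Bcl11a (3.21 ± 0.54). The level of Bcl11a at day 4 overlapped that of Sox6 (2.90 ± 0.59). At these lengths Zbtb7a stood above Bcl11a on each day. Nfix was below Bcl11a at day 0 and above it at days 2 and 4, with no overlap of the libraries. The order at other lengths was not compared.

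The globin genes, beside which the regulators were followed, rose in the adult types and in 1 embryonic gene, Hba-x. Hba-a1 had 128 and 123 CPM at day 0 and a log2 change of 6.41 for day 4 against day 0 (edgeR adjusted p = 6.88e-09), and Hbb-bs had 52.1 and 31.5 CPM at day 0 and a log2 change of 6.91 (edgeR adjusted p = 1.24e-08). Hba-a2, Hbb-b1 and Hbb-b2 had nearly the counts of Hba-a1, Hbb-bs and Hbb-bt and are not separate measurements. The minor genes Hbq1a and Hbq1b rose too (5.22 and 4.94, edgeR adjusted p = 2.06e-08 and 8.3e-09), as did Hbb-bt (6.77, edgeR adjusted p = 9.69e-09). The embryonic beta-like genes stayed near 0: Hbb-y had 0 to 4 counts per library, Hbb-bh2 0 to 3 and Hbb-bh1 0 to 13, beside 320331 and 411371 beta-like counts at day 4. The embryonic alpha-like gene Hba-x behaved otherwise, with 4.34 and 4.57 CPM at day 0, 92.0 and 124 CPM at day 2, and 209 and 462 CPM at day 4. Its log2 change for day 4 against day 0 was 6.23 (edgeR adjusted p = 1.19e-07). Hba-x made up 3.28% and 3.59% of the alpha-like counts (Hba-x plus Hba-a1) at day 0, 3.92% and 4.28% at day 2, and 2.09% and 3.87% at day 4. The 95% Wilson interval of the lowest share, replicate 1 of day 4, was 2.05% to 2.14%, below those of every other library, while replicate 2 of day 4 lay within the range of the other days. The mean share (3.44%, 4.10% and 2.98% in order of day) thus differed between days by less than the replicates of day 4 differed from each other. Both Hbb-y and Hba-x have TGACCA in the windows shown above.

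**Figure D4:**
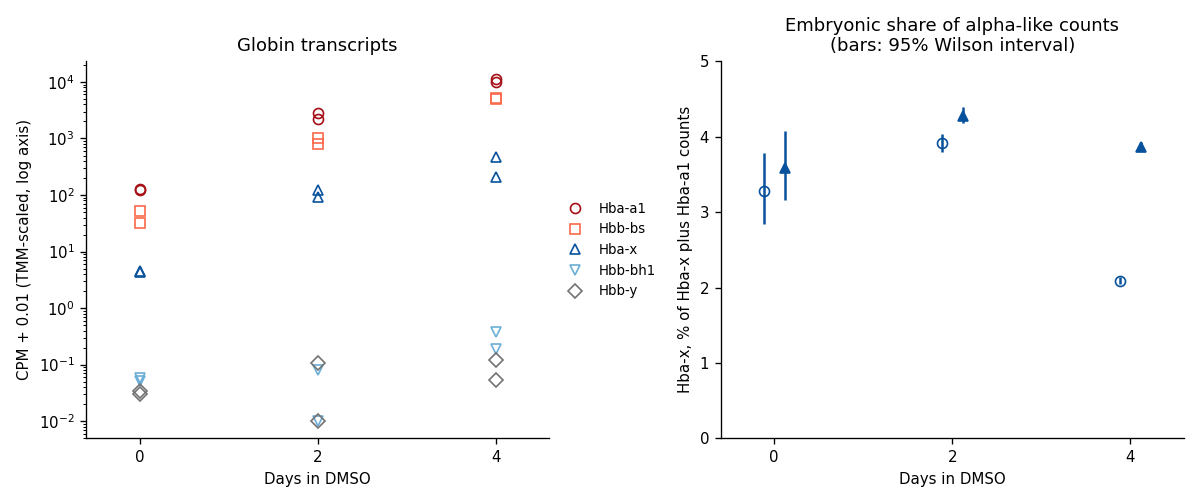
Left, CPM plus 0.01 on a log axis of 2 adult globin genes (Hba-a1, Hbb-bs) and 3 embryonic ones (Hba-x, Hbb-bh1, Hbb-y) in each of 6 libraries by day in DMSO. Right, Hba-x as a percent of Hba-x plus Hba-a1 counts per library with 95% Wilson intervals, which lies at 2.09% and 3.87% in the day 4 replicates (circles replicate 1, triangles replicate 2).

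The genes of the complexes that the regulators recruit were described from lists of their subunits and, for LSD1-CoREST, of partner factors. Of 14 tested NuRD subunits other than Chd4, 9 fell, 1 rose and 4 were not called for day 4 against day 0, beside 35.5% of all tested genes that rose and 36.4% that fell. Their median log2 change was -0.49, against -0.02 over all genes. The histone-binding subunit Rbbp7 had the lowest value, from 433 ± 151 CPM at day 0 to 104 ± 4.5 CPM at day 4 (SD, n = 2, log2 change -2.06, edgeR adjusted p = 3.61e-06). Chd3, the alternative motor to Chd4, followed with -1.55 (edgeR adjusted p = 1.07e-06), from 109 ± 17 to 37.2 ± 1.4 CPM. Gatad2b was the subunit that rose (0.37, edgeR adjusted p = 0.0191), and Mta1 was next highest with 0.08 (edgeR adjusted p = 0.547). Most of the fall in the median was present by day 2, when 8 of the 14 were lower and 6 were not called, beside 31.5% of all tested genes that were lower. For day 4 against day 2, 3 were lower and 11 were not called (median 0.05), beside 16.2% of all tested genes that were lower. Rbbp7 was among these 3 (-0.74, edgeR adjusted p = 0.0147). With total counts there were 6 lower calls at day 2 (median -0.29 in place of -0.48) and again 9 lower and 1 higher for the whole course. Leaving out each library gave 9 lower calls for the whole course, and no higher call without replicate 2 of day 0, replicate 1 of day 4 or replicate 2 of day 4.

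In the LSD1-CoREST list the calls were in the other direction. Of 9 tested genes other than Kdm1a, 8 rose and 1 was not called for day 4 against day 0, beside 35.5% of all tested genes that rose, with a median log2 change of 0.84. Phf21a, which reads the histone state that KDM1A leaves, went from 15.2 ± 1.3 to 43.6 ± 1.2 CPM (log2 change 1.52, edgeR adjusted p = 8.49e-07). The lowest values were those of Zmym3 (0.33, edgeR adjusted p = 0.0161) and Rcor2 (0.13, edgeR adjusted p = 0.299). The list also holds the transcription factors Gfi1 and Gfi1b, which are partners rather than subunits. Gfi1b was among the 8 that rose (0.84, edgeR adjusted p = 3.44e-05), and Gfi1 was too low to test. There were again 8 higher calls with total counts and with DESeq2, 7 in a fit of days 0 and 4 alone, and 6 to 8 when each library was left out, with 6 without replicate 2 of day 4. Kdm1a itself and Chd4 had smaller changes than most genes of their complexes in both lists.

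**Figure D5:**
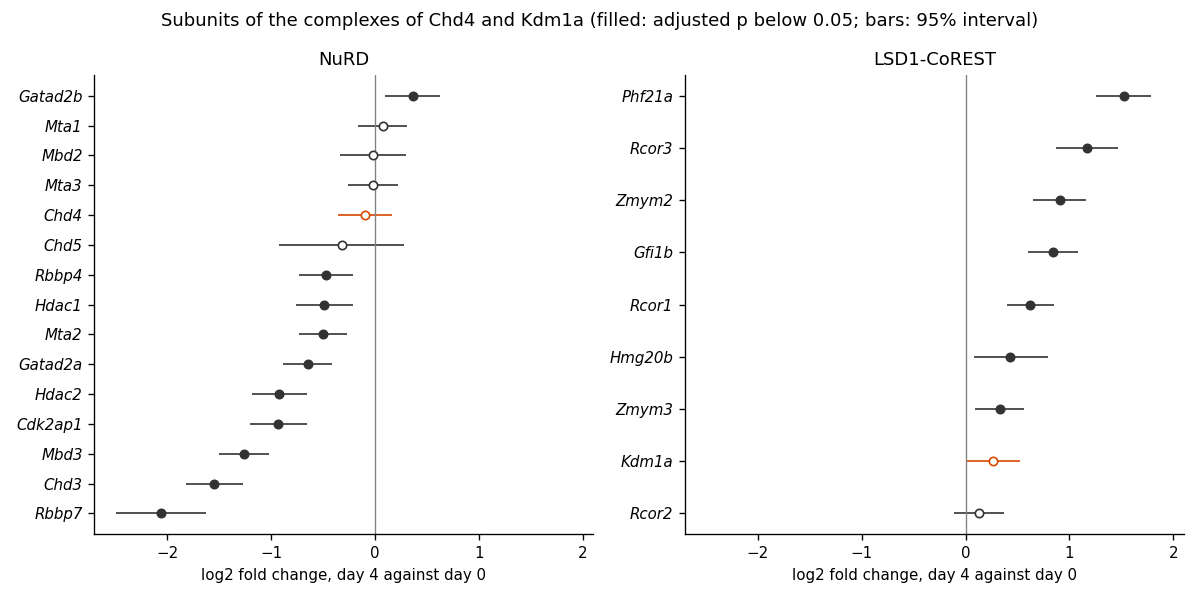
Log2 change for day 4 against day 0 (x axis) with 95% intervals of tested NuRD genes (left) and LSD1-CoREST genes (right, 1 gene not shown), with Chd4 and Kdm1a in orange and filled symbols for an edgeR adjusted p below 0.05. NuRD genes lie mostly below 0, with Rbbp7 lowest at -2.06, and the LSD1-CoREST genes shown lie above 0, with Phf21a highest at 1.52.

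Genes of the LIN28 and let-7 pathway were measured without LIN28 itself. Of 8 tested, 4 rose and 4 fell for day 4 against day 0, beside 35.5% and 36.4% of all tested genes. The let-7 target Hmga1, a chromatin protein of dividing cells, fell by 2.63 on the log2 scale (edgeR adjusted p = 1.99e-07), from 91.4 ± 22 to 14.8 ± 0.88 CPM. Igf2bp2 fell from 15 and 14 counts at day 0 to 1 and 2 counts at day 4 (edgeR adjusted p = 0.00132). Arid3b, another target, and Tut7, a terminal uridylyl transferase that acts on let-7 precursors, rose (1.21 and 1.39, edgeR adjusted p = 1.91e-05 and 8.62e-07). Libraries of poly(A) RNA do not measure mature let-7.

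Of 29 other tested regulators of globin genes, 11 rose, 9 fell and 9 were not called for day 4 against day 0, shares near the 35.5% and 36.4% of all tested genes. Myb, the progenitor factor that opposes terminal differentiation, had 371 and 399 CPM at day 0, 115 and 91.4 CPM at day 2, and 33.5 and 25.2 CPM at day 4. Its log2 change of -3.72 (edgeR adjusted p = 2.7e-08) was the lowest of the list, followed by Atf4, the stress response factor downstream of heme shortage, with -1.80 (edgeR adjusted p = 7.71e-06). Tal1 and Zfpm1 (FOG1), partners of GATA1, had the highest values with 1.92 and 1.41 (edgeR adjusted p = 4.37e-07 and 1.14e-06). Klf1, which activates both Bcl11a and the adult beta-globin gene, had 192 and 309 CPM at day 0 and 160 and 177 CPM at day 2. Its day 0 replicates thus lay far apart. At day 4 it had 173 and 171 CPM. It was lower than at day 0 both at day 2 (-0.57, edgeR adjusted p = 0.0176) and at day 4 (-0.54, edgeR adjusted p = 0.0188). It was not called for day 4 against day 2 (0.03, edgeR adjusted p = 0.924). A relation of Klf1 to the course of Bcl11a was not tested. Over all 68 tested partner genes of the 5 lists, 26 rose and 25 fell for day 4 against day 0, again near the 35.5% and 36.4% of all tested genes.

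The paralogs of the regulators were at 0 or low in many cases. Bcl11b, Ikzf3 and Nfib had 0 counts in all libraries, and Zbtb7c, Sox5 and Lin28a were too low to test. Within the Ikaros family, Ikzf2 (Helios) fell with Ikzf1, from 21.9 CPM at day 0 to 3.47 CPM at day 4 (log2 change -2.64, edgeR adjusted p = 1.52e-06), while Ikzf4 (Eos) rose from 1.19 to 10.96 CPM (3.19, edgeR adjusted p = 2.02e-07) and Ikzf5 was not called (-0.45, edgeR adjusted p = 0.229). Nfic rose with Nfix (0.73, edgeR adjusted p = 0.00094), from 20.9 to 34.7 CPM. Hic1 fell while Hic2 rose (-0.95, edgeR adjusted p = 0.000217), from 10.9 to 5.65 CPM. Sox13 fell from 0.874 to 0.0554 CPM (edgeR adjusted p = 0.000155). The paralogs Zbtb7b (0.02, edgeR adjusted p = 0.874), Kdm1b (-0.22, edgeR adjusted p = 0.112) and Chd5 (-0.32, edgeR adjusted p = 0.304) were not called.

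The genes most like the lowest and the highest changing regulator were named by the root mean square difference of centred log2 CPM over the 6 libraries, among 10315 tested genes with a mean log2 CPM of at least 1. Nearest to Bcl11a were Kif20b (0.045), a kinesin of cell division, the noncoding RNA Lockd (0.054) and Bzw2 (0.085). Nearest to Nfix were Acbd4 (0.072), Polr3gl (0.078) and Fam193b (0.093). Kif20b had 124 and 157 CPM at day 0 and 51.5 and 42.8 CPM at day 4, and Polr3gl had 19.3 and 31.4 CPM at day 0. Single libraries entered the measure, so the named genes share the day 0 replicate difference of Bcl11a or Nfix by selection. This likeness is a description over libraries of only 3 days.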

How the data were processed

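The mRNA-seq libraries came from 6 cultures of MEL cells, 2 on each of days 0, 2 and 4 in DMSO, and day and replicate were read from the labels. The authors trimmed adapters with cutadapt, aligned them to the mm10 genome by TopHat and deposited raw counts per RefSeq transcript, with HTSeq and DESeq2 also named in the submitters' processing notes. How the counting treated strand and reads shared by transcripts is not given in the sources used here, and 5245 of 23218 transcripts with any count shared all their values with another transcript.

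Symbols came from RefSeq for 32195 of 32654 transcripts and from GENCODE for 191, and 268 had none. Counts were fitted with edgeR 4.0.16 in R 4.3.3 (TMM factors, filterByExpr by day, which kept 18351 transcripts, and 1 quasi-likelihood fit of all 6 libraries), with p-values adjusted by the Benjamini-Hochberg method over these transcripts and called below 0.05. Standard errors were the size of the log2 fold change over the root of F. At or below 3 counts in a library was taken as the floor. Shares have 95% Wilson intervals, and intervals and floors cover counting error only. The fit was checked on simulated counts. DESeq2 1.42.0, other scalings, no filter, fits of only the days compared, a required change of at least 1 on the log2 scale, the least counted transcript of a gene, the replicate number as a block and leaving out each library were the alternatives.

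The text names all 10 regulators, all globins and paralogs, Klf1, Zfp410, the 2 highest and 2 lowest genes of each other list by log2 fold change for day 4 against day 0, and for the regulators with the highest and lowest called change the 3 genes of nearest course. Some genes of the lists are not reported here. The regulators and lists were chosen with earlier results of these data known.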

Additional observations from a re-analysis of the deposited data

How the results depend on the processing

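Of 366 values of single regulators under alternatives, 327 kept their direction and side of the threshold, 14 were no longer called, 17 became called and 8 turned in sign. The calls of Bcl11a, Zbtb7a, Ikzf1, Hic2 and Nfix for day 4 against day 0 held in every alternative run except the required change of at least 1 on the log2 scale, under which 3 regulators were called. Scaling by total counts, which moved the median of all genes from 0.01 to 0.21 for day 2 against day 0 and from -0.02 to 0.10 for day 4 against day 0, gave 7 called regulators for day 2 against day 0 in place of 4 and shifted the split over all genes from 3841 higher and 3902 lower to 5001 and 2881. For day 4 against day 2 it gave 1228 higher and 2532 lower genes in place of 1739 and 2010. When changes also had to reach 1 on the log2 scale, 1, 1 and 3 regulators and 17, 2 and 22 partner genes were called for day 2 against day 0, day 4 against day 2 and day 4 against day 0. Leaving out each library in turn gave 2 to 6 called regulators for day 2 against day 0, 1 to 5 for day 4 against day 2 and 5 to 39 partner genes for day 4 against day 2. There, the fit without replicate 1 of day 2 called 318 genes higher and 619 lower, and that without replicate 2 of day 4 called 576 and 863. The sign turned for Bcl11a at day 2 against day 0 with its least counted transcript (0.03), for Sox6 at day 4 against day 2 without replicate 2 of day 2 (0.03) or of day 4 (0.15, range over libraries left out -0.26 to 0.15), for Nfia at day 4 against day 2 without replicate 1 of day 2 (0.05) or of day 4 (0.09, range -0.28 to 0.09) and at day 4 against day 0 without replicate 2 of day 4 (-0.07, range -0.07 to 0.30), for Chd4 at day 4 against day 0 with total counts (0.01), and for Kdm1a at day 2 against day 0 without replicate 2 of day 0 (-0.01, range -0.01 to 0.31). None of these 8 was called, and the cause was not tested.

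Same-numbered libraries of different days deviated together only slightly (correlation over 18351 transcripts of 0.032, 0.045 and 0.079), so the numbers were not taken as pairs. The replicate block called 4, 4 and 5 regulators and 46, 26 and 52 partner genes in the order above, and changed no call of a regulator.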

Other observations

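Among the other globin regulators, the arm that senses heme moved in opposite directions. Eif2ak1, the heme-regulated kinase HRI, rose from 47.0 CPM at day 0 to 79.0 CPM at day 2 and 118 CPM at day 4 (1.33 on the log2 scale from day 0 to day 4, edgeR adjusted p = 2.37e-06), while Atf4, whose translation this kinase promotes, fell from 536 to 241 and 153.5 CPM. Spop, the ubiquitin ligase adaptor of this list, fell by 0.76 on the log2 scale (edgeR adjusted p = 0.000144), and Cul3, the scaffold it works with, had -0.10 (edgeR adjusted p = 0.389). Dnmt1, the maintenance DNA methyltransferase, fell from 1502 to 526 CPM (-1.51, edgeR adjusted p = 1.83e-06), and Prmt5, an arginine methyltransferase, from 84.6 to 36.9 CPM (-1.20, edgeR adjusted p = 2.54e-06). Dnmt3a, a de novo DNA methyltransferase, rose by 0.36 (edgeR adjusted p = 0.0168). These genes, Atf4 apart, were chosen after their values were seen.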
